A study of Mus musculus with 6 samples.

Results

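The genes that build cholesterol and fatty acids, with their regulators and sterol carriers, were followed in mouse haematopoietic stem cells of floxed beta-catenin, Vav-Cre positive samples and of samples labelled as controls. The group holds 30 named genes: the enzymes of the route from acetyl-CoA to cholesterol, the SREBP transcription factors and the proteins that hold or escort them, 3 sterol carriers and 4 enzymes of fatty acid synthesis. A gene counted as measured where the array annotation assigned at least 1 probe set to it and to no other gene, which gave 29 of the 30 members among 20352 genes in all. Acat2, a thiolase at the head of the route, had no such probe set and was not analysed here. The 29 genes were covered by 374 probe sets. Of these, 302 had a mean log2 value over the 6 arrays at or above 7.60, the median of all probe sets, and every measured member kept at least 1 of them. Each gene was given 1 value per array, the median over its kept probe sets, and 14586 genes had such a value.

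Expression had been measured on 6 microarrays, 3 of floxed and 3 of control samples. The floxed samples carried floxed alleles of Ctnnb1, the gene of beta-catenin, and the Vav-Cre transgene, whose Vav promoter drives Cre recombinase in blood-forming cells. The labels give the genotype of the other 3 samples as control alone, and do not say whether these carried floxed alleles or Cre. All samples were bone marrow cells sorted for c-Kit and Sca-1 and against lineage markers and CD34, a gate for long-term haematopoietic stem cells. Strain, age, sex and the number of animals behind a sample are not given in the labels, so the spread between replicates may be in part technical.

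Cholesterol is made from acetyl-CoA through mevalonate, isoprenoid diphosphates and squalene, and the first of these steps also feed protein prenylation, dolichol and ubiquinone. When the sterol content of the endoplasmic reticulum falls, SCAP escorts the SREBP precursors to the Golgi, where proteases release the active transcription factors. INSIG proteins bind SCAP and keep it in the endoplasmic reticulum when sterols are plentiful. SREBP2 acts mainly on sterol synthesis and uptake, and SREBP1c on fatty acid synthesis. In blood-forming cells these lipids supply new membrane, and the isoprenoid branch anchors small GTPases.

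No member passed an adjusted p of 0.05. With limma, each of the 29 had an adjusted p of 0.999 over all genes tested, and the same test called 0 of the 14586 genes (0%). The lowest adjusted p over all genes was 0.667, and 540 genes had an unadjusted p under 0.05. Of the members, 18 had a higher and 11 a lower mean in floxed than in control arrays, so 62.1% were higher, against 54.2% of all genes. Their median log2 fold change was 0.03, floxed minus control, against 0.02 over all genes. Without control replicate 3, 13 members were higher and 16 lower (44.8% higher, against 50.4% of all genes), and their median was -0.018. With any 1 array left out the median ran from -0.032 to 0.14, so its sign did not hang on control replicate 3 alone. An unadjusted p under 0.05 was found for 3 members (10.3%), against 3.70% of all genes: Idi1 and Insig1 on the higher side (2.43% of all genes) and Scap on the lower (1.28%). The floxed and control values did not overlap for 5 members (17.2%), against 8.44% of all genes. Idi1 and Insig1 lay above control, where 5.57% of all genes did, and Mvk, Scap and Npc1 lay below, where 2.87% did. With such small counts the shares describe these arrays and have no test of their own.

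The precision of the 3 floxed and 3 control arrays limits these statements. The 95% confidence interval of the log2 fold change reached a median of 0.39 to either side of the estimate, and it lay within 1 of 0 for 28 of the 29 members, against 97.1% of all genes. The exception was Scd1. An exact permutation test of 3 against 3 arrays cannot give a two-sided p below 0.1, so no exact test of a single gene is reported.

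**Figure D1:**
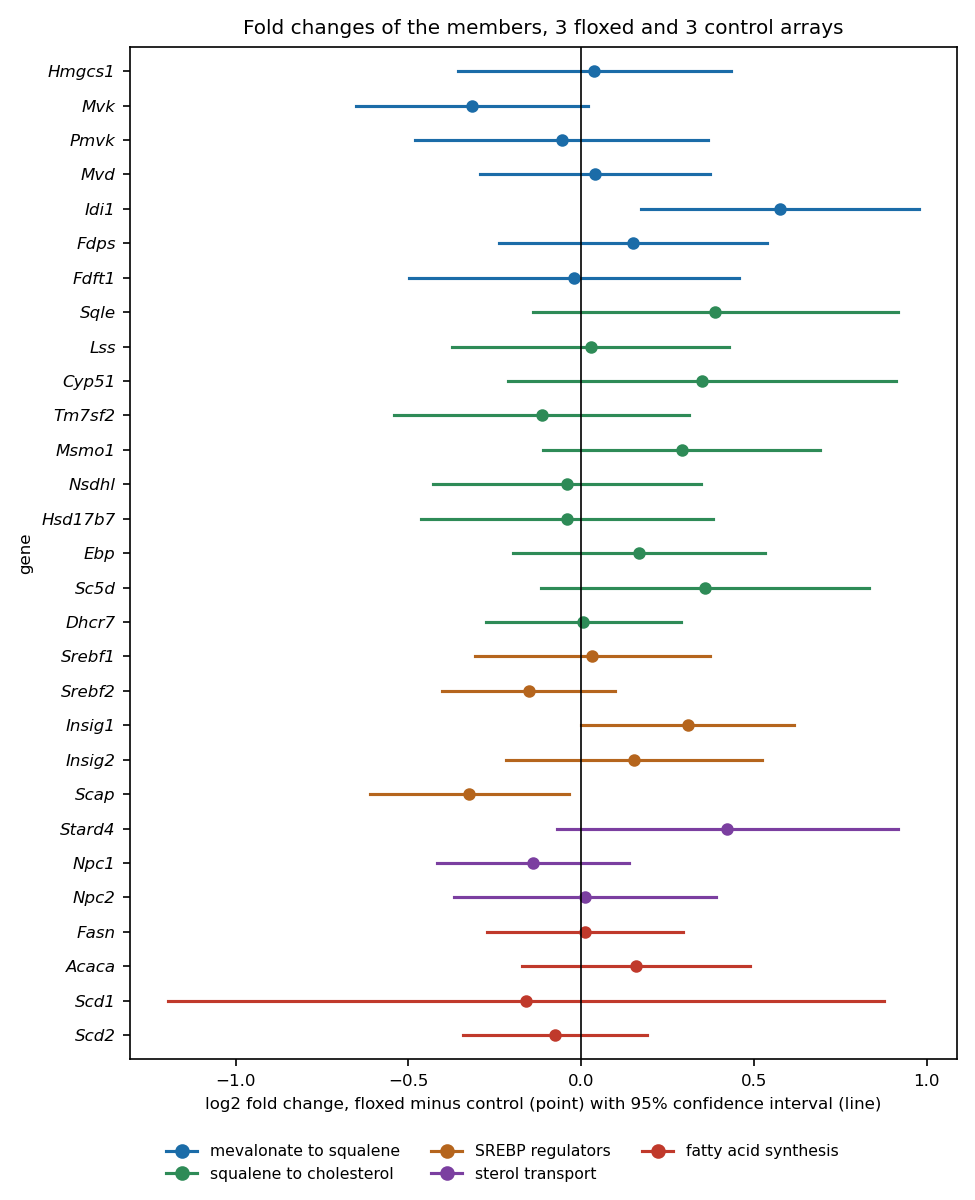
Log2 fold change, floxed minus control, of the 29 measured members on the x axis, with genes down the y axis in the order of their roles; points are limma estimates, lines 95% confidence intervals and colours roles. The intervals of Idi1, Scap and, only just, Insig1 do not reach 0, and that of Scd1 runs from -1.20 to 0.88.

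The targeted gene Ctnnb1 had gene values of 10.53, 10.30 and 10.68 in floxed arrays, against 11.21, 11.52 and 11.41 in control arrays. Among its 16 kept probe sets, 10 were lower and 6 higher in floxed arrays. Of the lower ones 5 passed, with log2 fold changes between -6.90 and -2.51 and limma adjusted p between 1.19e-05 and 0.00137, and these were the only probe sets of the 120788 kept that passed. The other 11 of Ctnnb1 lay between -0.28 and 0.48, and in 2 of them the floxed arrays were above the controls without overlap. The gene value of Ctnnb1 had a log2 fold change of -0.88, which was -0.16 with a filter at the 75th percentile of probe-set means and -1.64 with averaged probe sets. Across genes, the correlation was 0.962 to 0.972 between floxed arrays, 0.915 to 0.963 between a floxed and a control array and 0.880 to 0.934 between control arrays. The control arrays differed from one another in several marker genes, and no single one stood apart throughout. The median deviation of 7 B cell markers from each gene's mean was 0.86, 0.23 and -0.83 in control replicates 1, 2 and 3. Array weights, which limma sets by the fit of an array to its group, were 0.270, 3.37 and 0.402. Of the gate genes, Kit was between 11.63 and 11.85 in floxed and between 11.78 and 11.90 in control arrays. Ly6a, the gene of Sca-1, varied more, between 11.10 and 11.56 in floxed and between 10.93 and 11.89 in control arrays. Cd34, which the gate selects against at the surface, was between 12.62 and 12.69 in floxed and between 12.64 and 12.70 in control arrays, a high level on both sides.

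The DNA upstream of the members was set beside these values. RefSeq windows of GRCm38.p6, 250 bases before an annotated start, were matched for 23 of the 30 members, with 31 windows in all, since some genes have several starts. Fdps, Fdft1, Sqle, Stard4, Npc1, Scd1 and Scd2 had no window. SREBPs bind a sterol regulatory element beside NF-Y and Sp1 sites, and their basic helix-loop-helix domain also binds E boxes. Both strands were searched for the letters of each motif. The NF-Y box CCAAT was in 21 of 31 member windows (67.7%), against 33.9% of 32851 windows of all genes and 35.4% of 21263 windows of protein-coding genes. The Sp1 box GGGCGG was in 23 (74.2%), against 32.7% of all and 42.6% of protein-coding windows. The E box CACGTG was in 5 (16.1%), against 6.02% of all. The sterol regulatory element, written TCACNCCAC, was in 1 window (3.23%), that of Hmgcs1, against 1.05% of all, and a longer form of it was in none, against 0.0731% of all. Member windows were also richer in G and C, with a median of 62.4%, against 52.4% over all windows and 55.6% over those of protein-coding genes. A match of letters is a description of the window and says nothing of binding in these cells.

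The windows of Hmgcs1 and of Idi1, Insig1, Mvk and Scap are shown, the first because it holds the sterol regulatory element and the others because their groups did not overlap. Each is given 5′ to 3′ on the gene's strand, and capitals mark the sterol regulatory element, NF-Y box and E box on either strand. Lower case letters hold none of these, and Sp1 boxes are not marked. Idi1, higher in floxed arrays by 0.58, held 2 NF-Y boxes, Insig1, higher by 0.31, held 1 NF-Y box and 1 E box, and Hmgcs1, at 0.04, held 3 NF-Y boxes. Mvk, with a log2 fold change of -0.32, held 5 NF-Y boxes, and the shown window of Scap, at -0.32, held 1 E box. The other window of Scap, which overlaps the shown one, held none of the marked motifs and no Sp1 box.
Hmgcs1, chr13:119690101-119690350, plus strand: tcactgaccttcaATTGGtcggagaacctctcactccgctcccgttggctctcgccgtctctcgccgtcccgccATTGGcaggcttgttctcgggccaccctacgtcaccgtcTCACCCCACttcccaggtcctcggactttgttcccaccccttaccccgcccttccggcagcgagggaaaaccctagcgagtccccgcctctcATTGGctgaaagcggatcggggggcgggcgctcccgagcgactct
Idi1, chr13:8885356-8885605, plus strand: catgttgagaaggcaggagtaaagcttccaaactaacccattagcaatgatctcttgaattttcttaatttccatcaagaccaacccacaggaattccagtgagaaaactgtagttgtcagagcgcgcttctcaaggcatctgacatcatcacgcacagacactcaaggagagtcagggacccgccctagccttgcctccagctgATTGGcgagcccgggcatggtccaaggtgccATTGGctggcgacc
Insig1, chr5:28071162-28071411, plus strand: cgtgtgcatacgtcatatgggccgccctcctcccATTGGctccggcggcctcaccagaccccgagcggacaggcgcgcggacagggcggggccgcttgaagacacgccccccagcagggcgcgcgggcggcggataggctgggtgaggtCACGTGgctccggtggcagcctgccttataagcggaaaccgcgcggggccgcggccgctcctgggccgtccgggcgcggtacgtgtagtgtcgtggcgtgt
Mvk, chr5:114444019-114444268, plus strand: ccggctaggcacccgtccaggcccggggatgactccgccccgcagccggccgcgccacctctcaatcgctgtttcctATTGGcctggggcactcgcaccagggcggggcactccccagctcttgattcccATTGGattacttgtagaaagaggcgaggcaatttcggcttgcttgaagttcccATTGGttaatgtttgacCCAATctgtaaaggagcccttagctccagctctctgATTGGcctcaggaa
Scap, chr9:110333106-110333355, plus strand: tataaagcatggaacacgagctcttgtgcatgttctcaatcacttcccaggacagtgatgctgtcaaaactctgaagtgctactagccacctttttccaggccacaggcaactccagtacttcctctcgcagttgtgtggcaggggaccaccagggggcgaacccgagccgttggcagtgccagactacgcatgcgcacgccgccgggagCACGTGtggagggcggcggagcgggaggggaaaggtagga
The same kinds of letters thus stood upstream of members with higher means, with a log2 fold change near 0 and with lower means in floxed arrays.

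The early steps of the route run from Hmgcs1 to Fdft1, and 4 of the 7 measured genes were higher in floxed arrays and 3 lower; the median log2 difference was 0.04. Idi1 encodes isopentenyl-diphosphate isomerase, which makes dimethylallyl diphosphate, the starter unit of all isoprenoids. Its log2 values were 9.06, 9.27 and 9.48 in the 3 floxed arrays, against 9.01, 8.57 and 8.50 in the 3 control arrays. Every floxed array was above every control array, but floxed replicate 1 and control replicate 1 lay only 0.05 apart. The log2 fold change was 0.58 (SE 0.18, 95% confidence interval 0.17 to 0.98), a ratio of 1.49, with a limma unadjusted p of 0.00943 and an adjusted p of 0.999. It was the largest difference of any member, in either direction, and it lay between 0.47 and 0.74 when any 1 array was left out. When limma weighted each array by its fit to its group, Idi1 passed with a log2 fold change of 0.68 and an adjusted p of 0.0262. That fit called 404 genes (2.77%; 1.94% higher and 0.830% lower), and it gave control replicate 2 a weight of 3.37, against 0.270 for control replicate 1 and 0.402 for control replicate 3, so it rests mostly on 1 control array.

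All 8 kept probe sets of Idi1 were higher in floxed arrays, by 0.19 to 0.86, against 58.8% of all kept probe sets. In 2 of the 8 the groups did not overlap, and the share of such probe sets over all kept ones is not given here. The probe sets carry numbers in 2 separate blocks, which the sources used here do not place on the genome. The block of 5 gave 9.21, 9.55 and 9.60 in floxed arrays, against 9.08, 8.85 and 8.55 in control arrays. The block of 3 gave 8.91, 8.80 and 9.16 in floxed arrays, against 8.96, 8.45 and 8.36 in control arrays, where the groups overlapped through control replicate 1. With the larger block alone, a setting chosen after seeing the data, the log2 fold change was 0.63. Whether the second block reads the same gene was not tested.

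Mvk encodes mevalonate kinase, which phosphorylates mevalonate. It had values of 8.38, 8.29 and 8.54 in floxed arrays, against 8.78, 8.65 and 8.72 in control arrays. Every floxed array was below every control array, and the log2 fold change was -0.32 (SE 0.15, 95% confidence interval -0.65 to 0.02; limma adjusted p 0.999). Single probe sets did not show this separation: the groups overlapped in all 9, and the median of their log2 fold changes was -0.05. When probe sets were averaged and no median was taken, the log2 fold change of Mvk was -0.10, and with a filter at the 75th percentile of probe-set means it was 0.03.

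The other early enzymes had small differences. Hmgcs1 makes HMG-CoA in the cytosol and is a classical SREBP2 target, and its log2 fold change was 0.04. Pmvk and Mvd, the next kinase and the decarboxylase of mevalonate, had log2 fold changes of -0.06 and 0.04. Fdps makes farnesyl diphosphate and had a log2 fold change of 0.15, with all 4 of its probe sets higher in floxed arrays, but -0.018 without control replicate 3. Fdft1, squalene synthase, commits farnesyl diphosphate to sterols and had a log2 fold change of -0.02, or -0.04 with the larger of its 2 blocks of probe-set numbers. For these 5 genes the 95% confidence intervals all held 0 and together ran from -0.50 to 0.54.

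**Figure D2:**
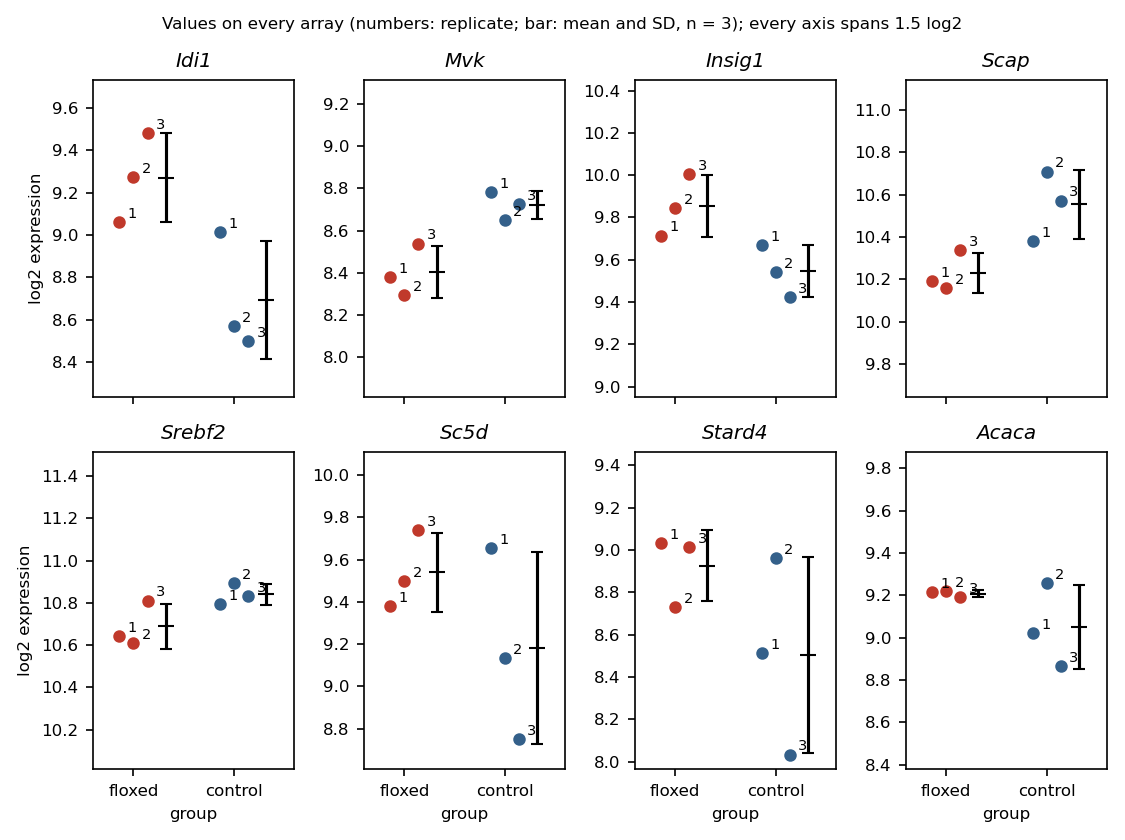
Log2 expression on the y axis for 8 members in the floxed (left, red) and control (right, blue) arrays; points are arrays numbered by replicate, bars give the mean and SD (n = 3), and every y axis spans 1.5 log2 units. Idi1 and Insig1 sit above and Mvk and Scap below the controls without overlap, while the control arrays of Sc5d and Stard4 are widely spread.

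From squalene to cholesterol, 7 of 10 enzymes were higher in floxed arrays and 3 lower, the median log2 difference was 0.10, and the groups overlapped for all 10. Without control replicate 3 these were 5 higher and 5 lower, with a median of 0.01. The smallest limma p of these enzymes belonged to Sc5d, lathosterol oxidase, which introduces a double bond into the sterol ring. Its values were 9.38, 9.50 and 9.74 in floxed arrays, against 9.65, 9.13 and 8.75 in control arrays. The log2 fold change was 0.36 (SE 0.22, adjusted p 0.999), and control replicate 1 lay above 2 of the 3 floxed arrays. Without control replicate 3 the log2 fold change of Sc5d was 0.14, without control replicate 1 it was 0.60, and with a filter at the 75th percentile it was 0.12.

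Sqle, squalene epoxidase and a rate-limiting enzyme of the sterol branch, was given in detail after its values were seen. It measured 8.78, 8.98 and 9.53 in floxed arrays, against 8.99, 8.88 and 8.25 in control arrays. Its log2 fold change was 0.39, without control replicate 3 it was 0.16 and without floxed replicate 3 it was 0.17. Cyp51, lanosterol 14-alpha-demethylase, was also chosen after its values were seen and measured 8.22, 8.27 and 8.86 in floxed arrays, against 8.52, 8.18 and 7.61 in control arrays. Its log2 fold change of 0.35 was 0.10 without control replicate 3 and 0.15 without floxed replicate 3, although all 9 probe sets were higher in floxed arrays. In Sqle and Cyp51 the highest array was floxed replicate 3 and the lowest control replicate 3.

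Among the remaining enzymes, Msmo1, the sterol C4-methyl oxidase that the annotation lists as Sc4mol, had a log2 fold change of 0.29 with all 5 probe sets higher in floxed arrays, and 0.14 without floxed replicate 3. Lss, which cyclises squalene epoxide to lanosterol, and Dhcr7, which catalyses the last reduction to cholesterol, had log2 fold changes of 0.03 and 0.01. Tm7sf2, a sterol C14 reductase, and Hsd17b7, a 3-ketosteroid reductase of the route, had log2 fold changes of -0.11 and -0.04. Nsdhl and Ebp, a sterol dehydrogenase and a sterol isomerase, are X-linked and had log2 fold changes of -0.04 and 0.17, and that of Ebp was 0.042 without control replicate 3. Beside these, and chosen as markers of sex after their values were seen, Xist, which coats the silenced X chromosome, was at 12.12, 11.12 and 10.75 in floxed arrays, against 11.42, 5.38 and 11.70 in control arrays. The Y-linked Kdm5d was at 9.04, 9.60 and 9.40 in floxed arrays, against 9.12, 10.06 and 8.57 in control arrays. Control replicate 2 was thus the lowest for Xist and the highest for Kdm5d. The other Y-linked genes tested, Eif2s3y and Uty, were highest on floxed replicate 2, at 9.38 and 8.98, against 8.98 and 8.83 on control replicate 2. For Kdm5d, Eif2s3y and Uty the lowest array was control replicate 3, at 8.57, 7.76 and 7.31, where Xist was at 11.70. The part of the sex of the animals in the values of Nsdhl and Ebp was not tested.

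The regulators of SREBP gave 2 of the 3 members with an unadjusted p under 0.05. Of the 5 genes, 3 were higher and 2 lower in floxed arrays, and their median log2 difference was 0.03. Insig1 is both a retention factor for SCAP and an SREBP target. It measured 9.71, 9.84 and 10.00 in floxed arrays, against 9.67, 9.54 and 9.43 in control arrays. Every floxed array was above every control array, with 0.04 between the nearest pair. The log2 fold change was 0.31 (SE 0.14, 95% confidence interval 0.00 to 0.62), with a limma unadjusted p of 0.0498 and an adjusted p of 0.999. All 5 probe sets of Insig1 were higher in floxed arrays, by 0.12 to 0.38, against 58.8% of all kept probe sets. In 4 of the 5 the groups did not overlap, and the share of such probe sets over all kept ones is not given here. The 5 share the transcripts of 1 gene and do not count as separate observations. Insig2, its paralogue, had a log2 fold change of 0.15 with overlapping groups, and 0.038 without control replicate 2 or 0.060 without control replicate 3.

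Scap measured 10.19, 10.16 and 10.34 in floxed arrays, against 10.38, 10.71 and 10.57 in control arrays. Every floxed array was below every control array, with 0.04 between the nearest pair. The log2 fold change was -0.32 (SE 0.13, 95% confidence interval -0.61 to -0.04), with a limma unadjusted p of 0.0308 and an adjusted p of 0.999. Its probe sets were divided: 13 of 20 were lower in floxed arrays and 7 higher. Over all 20 the log2 fold changes ran from -0.44 to 0.35, with a median of -0.15. By probe-set number the 13 lower ones came first and the 7 higher ones after them. Control means were 9.71 to 11.99 for the lower ones and 8.08 to 9.05 for the higher ones. The sources used here do not place them on the genome. When probe sets were averaged, the log2 fold change of Scap was -0.09, and with no filter it was -0.18. With array weights Scap passed, at -0.46 and an adjusted p of 0.0354, in the fit that leans on control replicate 2. The escort protein and the retention factor thus had differences of opposite sign, of which the second was seen in every probe set and the first in 13 of 20.

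Srebf2, which encodes SREBP2, measured 10.64, 10.61 and 10.81 in floxed arrays, against 10.80, 10.89 and 10.83 in control arrays. The third floxed array reached into the control range, and the log2 fold change was -0.15 (SE 0.11, adjusted p 0.999 with limma), and -0.020 with averaged probe sets. Srebf1, which encodes both SREBP1 forms, had a log2 fold change of 0.03. These are transcript levels, and the cleavage of SREBP precursors was not measured.

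Of the sterol carriers, Stard4 binds cholesterol in the cytosol and moves it between membranes. It measured 9.03, 8.73 and 9.02 in floxed arrays, against 8.51, 8.96 and 8.03 in control arrays. The groups overlapped through control replicate 2, and the log2 fold change was 0.42 (SE 0.22, 95% confidence interval -0.07 to 0.92, limma adjusted p 0.999). All 9 probe sets were higher in floxed arrays, by 0.13 to 0.61, and without control replicate 3 the log2 fold change was 0.19, or 0.65 without control replicate 2 and 0.047 with array weights. Npc1 and Npc2 release cholesterol from lysosomes, and their log2 fold changes were -0.14 and 0.01. The floxed arrays of Npc1 lay between 10.02 and 10.20 and the control arrays between 10.20 and 10.40, and the nearest floxed and control arrays were only 0.00532 apart. Without floxed replicate 3 the log2 fold change of Npc1 was -0.086, and without control replicate 1 it was -0.074.

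Of the 4 enzymes of fatty acid synthesis 2 were higher and 2 lower in floxed arrays, and their median log2 difference was -0.03. Acaca, acetyl-CoA carboxylase alpha, makes the malonyl-CoA that fatty acid synthase uses. Its values were 9.21, 9.22 and 9.19 in floxed arrays, against 9.02, 9.26 and 8.87 in control arrays. The floxed arrays were close together within the control range, and the log2 fold change was 0.16 (SE 0.15, adjusted p 0.999 with limma). Its probe sets also carry numbers in 2 blocks, and the block of 10 gave 9.14, 9.03 and 9.13 in floxed arrays, against 8.89, 8.86 and 8.70 in control arrays, without overlap. For Acaca the log2 fold change was 0.29 with that block alone, 0.40 with no filter, 0.067 without control replicate 3, 0.26 without control replicate 2 and 0.0059 with array weights. Whether both blocks read Acaca was not tested. Fasn, fatty acid synthase, had a log2 fold change of 0.01, with 24 of its 44 probe sets higher in floxed arrays. Scd2, a stearoyl-CoA desaturase, had a log2 fold change of -0.08.

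Scd1, the other desaturase measured, had the widest spread of all members and was looked at in detail for that reason, after its values were seen. It measured 7.60, 8.03 and 8.80 in floxed arrays, against 9.23, 8.59 and 7.09 in control arrays. The log2 fold change was -0.16 with an SE of 0.47, and without control replicate 3 it was -0.77. Of the B cell markers, 2 were picked after their values were seen because they ran beside Scd1. Ms4a1 measured 7.59, 8.20 and 8.76 in floxed arrays, against 9.40, 8.69 and 6.68 in control arrays, and Cd79a 8.99, 8.85 and 9.84 in floxed arrays, against 10.70, 9.37 and 7.06 in control arrays. In Scd1, Ms4a1 and Cd79a the highest array was control replicate 1, the lowest control replicate 3, and the highest floxed array replicate 3. This shared order follows from how the 2 markers were picked. Over all 7 B cell markers, control replicate 1 was the highest for 5 and control replicate 3 the lowest for 6. Vpreb1 was highest on control replicate 3, at 9.11, and Cd79b on floxed replicate 3, at 10.70. In bulk samples such as these, fewer cells of a type and less RNA per cell cannot be told apart, and the part of other cells in the Scd1 values was not tested.

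**Figure D3:**
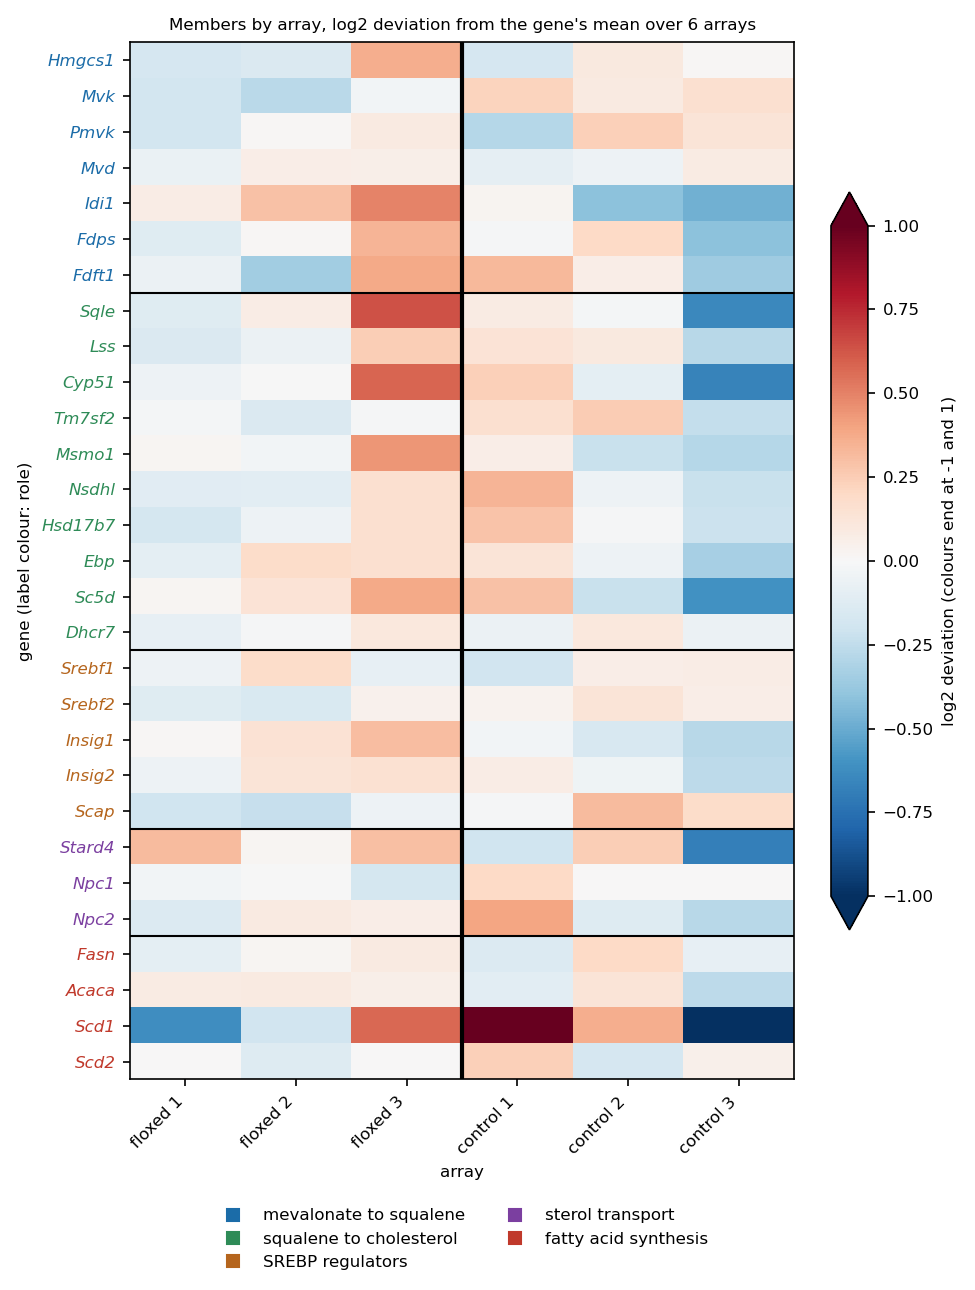
Log2 deviation of each member from its mean over the 6 arrays (colour scale from -1 to 1, values beyond it in the end colours), with genes on the y axis in the order of their roles and arrays on the x axis, floxed left of the vertical line and control right of it. Red cells gather in floxed replicate 3 and blue cells in control replicate 3 for most enzymes from squalene on and for Idi1, Fdps and Fdft1.

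Many enzymes of the cholesterol route varied together by array within the groups, which the plot of deviations by gene and array shows. The median deviation of the 17 measured enzymes of the cholesterol route from each gene's mean was -0.10, -0.02 and 0.25 in the floxed arrays, against 0.13, -0.02 and -0.28 in the control arrays. Over all genes it was between -0.02 and 0.03 in floxed and between -0.08 and 0.03 in control arrays. Control replicate 3 was the lowest array for 12 of the 17 enzymes (70.6%), and for 9 of the 10 from squalene on, against 34.7% of all genes. Floxed replicate 3 was the highest for 10 of the 17 (58.8%), against 12.5% of all genes. Not all roles shared this pattern. On control replicate 3 the median deviation was -0.28 from squalene on, -0.28 for sterol transport and -0.17 for fatty acid synthesis. It was 0.01 from mevalonate to squalene and 0.07 for the SREBP regulators. Floxed replicate 3 was the highest for 0 of 3 sterol carriers and 0 of 4 enzymes of fatty acid synthesis.

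Scaling moved the share at the low end more than that at the high end. After quantile normalization control replicate 3 was the lowest for 6 of 17 enzymes (35.3%, against 20.6% of all genes) and floxed replicate 3 the highest for 10 of 17 (58.8%, against 12.0%). With array medians set equal, each was the extreme for 9 of 17 (52.9%), against 24.8% of all genes for the low end and 11.8% for the high end. The route enzymes share regulators and arrays, so they are not independent observations.

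Marker lists of other cells were read over the same arrays, and those of B cells and of granulocytes and macrophages varied most. The median deviation of 7 B cell markers was -0.18, -0.29 and 0.43 in floxed arrays, against 0.86, 0.23 and -0.83 in control arrays. That of 10 markers of granulocytes and macrophages was -0.47, -0.38 and 0.22 in floxed arrays, against 0.49, 0.51 and -0.40 in control arrays. In both lists the highest floxed array was replicate 3 and the lowest control array replicate 3, as for the route enzymes. All 10 granulocyte and macrophage markers had a lower mean in floxed arrays, while 54.2% of all genes had a higher one. Their log2 fold changes ran from -1.03 to -0.0013, and the groups overlapped for all 10. Ngp, among the larger differences of the list at -0.88, was at 10.91, 10.56 and 11.43 in floxed arrays, against 12.32, 12.03 and 11.19 in control arrays. The lowest value of a marker in these lists was 6.68, that of Ms4a1 on control replicate 3, and a level of 0 cannot be told on arrays without detection calls. Within the B cell list control replicate 3 was the lowest array for 6 of 7 markers, and in Vpreb1, the exception, it was the highest. Within the granulocyte and macrophage list it was the lowest for 4 of 10.

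The other lists were read the same way. The median deviation of 7 erythroid and megakaryocyte markers was -0.26, -0.20 and 0.12 in floxed arrays, against 0.10, 0.17 and -0.02 in control arrays, and control replicate 3 was the lowest for 0 of 7. Of these markers 6 were lower in floxed arrays, and Epor and Alas2 had an unadjusted limma p under 0.05 without passing. The 5 T and NK cell markers had medians of -0.41, -0.03 and 0.07 in floxed arrays, against 0.19, 0.21 and -0.07 in control arrays. Control replicate 3 was the lowest for 1 of 5 T and NK cell markers and for 1 of 5 markers of stroma, endothelium and fat cells. Of 6 stem cell markers 5 were higher in floxed arrays, and control replicate 3 was the lowest for 3. The part of all these markers in the members' values was not tested.

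**Figure D4:**
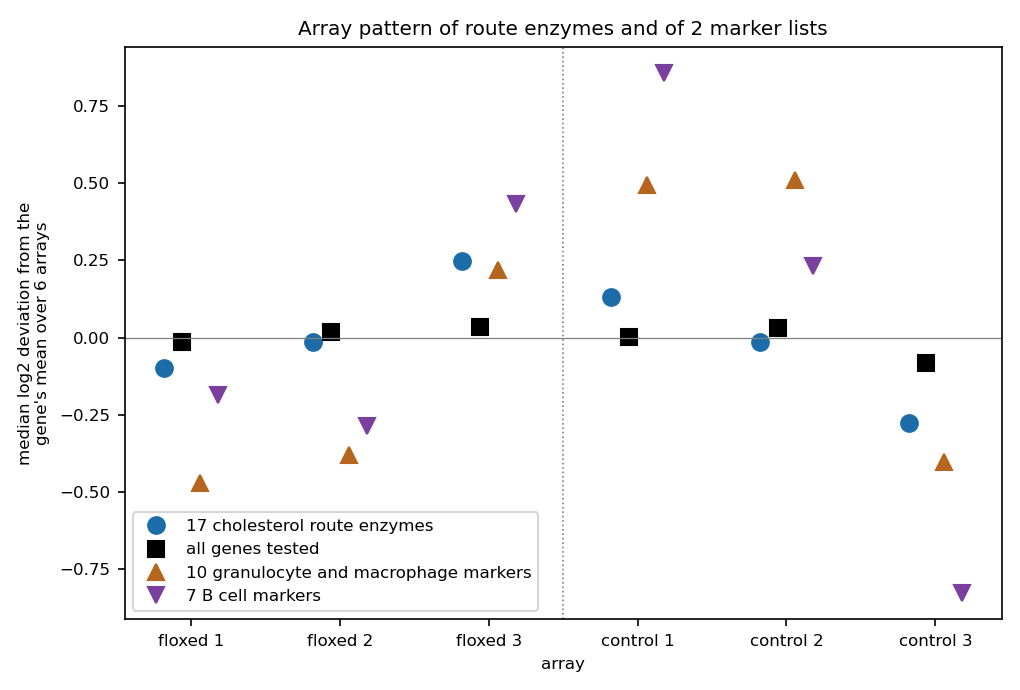
Median log2 deviation from each gene's mean over the 6 arrays (y axis) on each array (x axis, floxed left and control right of the dotted line) for the 17 route enzymes, all genes tested, 10 granulocyte and macrophage markers and 7 B cell markers. The route enzymes run from -0.28 on control replicate 3 to 0.25 on floxed replicate 3, and the B cell markers from -0.83 to 0.86.

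Single probe sets gave no call among the members. Of the 302 kept, 184 were higher in floxed arrays (60.9%), against 58.8% of all kept probe sets. With limma 0 of the 302 passed, the lowest adjusted p was 0.975, and 14 had an unadjusted p under 0.05 (4.64%, against 4.35% of all kept). These 14 were 10 on the higher side (3.21% of all kept) and 4 on the lower (1.14%). Over all kept probe sets the share that passed was 0.00414%. Every kept probe set was higher in floxed arrays for Idi1, Fdps, Cyp51, Msmo1, Ebp, Sc5d, Insig1, Insig2 and Stard4, and every one was lower for Pmvk, which had 2. Probe sets of 1 gene share its transcripts and are not replicates.

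**Figure D5:**
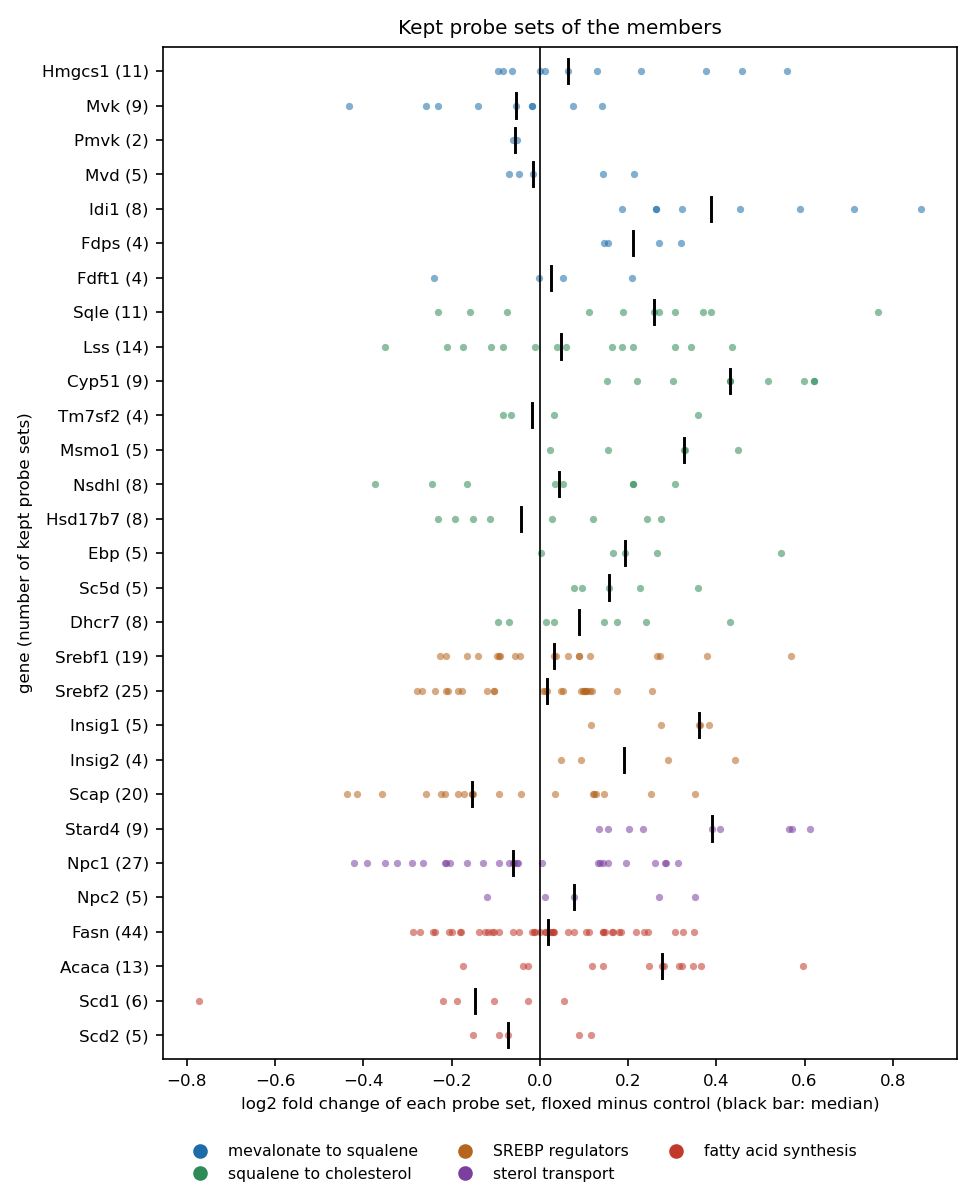
Log2 fold change, floxed minus control, of each kept probe set (points, x axis) by gene (y axis, with the number of kept probe sets), coloured by role; black bars are medians over the probe sets of a gene. All points of Idi1, Cyp51, Insig1 and Stard4 lie right of 0, while those of Mvk, Scap and Npc1 lie on both sides.

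Genes next to the members in the same pathways were taken from 5 lists. Sterol genes outside the members, covering oxysterol formation, uptake, storage and efflux, had 16 of 21 genes tested, of which 9 were higher and 7 lower in floxed arrays (median log2 difference 0.02). None had an unadjusted p under 0.05, and the smallest p was that of Nr1h3, the oxysterol receptor LXR alpha, at 8.85, 8.33 and 8.31 in floxed arrays, against 8.90, 8.51 and 9.58 in control arrays. Its log2 fold change of -0.50 came with overlapping groups and with control replicate 3 as the highest array. Without that array the log2 fold change of Nr1h3 was -0.21, with array weights it was -0.18 and with no filter -0.0031. In SREBP processing 8 of 10 genes were tested, with 6 higher and 2 lower. Erlin1, an endoplasmic reticulum protein of sterol-regulated degradation, had the smallest p there and a log2 fold change of 0.32, with overlapping groups. Without control replicate 2 that of Erlin1 was 0.18, and with array weights, which lean on that array, it was 0.54.

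The isoprenoid branch uses the products of Idi1 and Fdps for prenylation, dolichol and ubiquinone, and all 11 listed genes were tested. In floxed arrays 9 were higher and 2 lower, and their median log2 difference was 0.15, against 0.02 over all genes. The groups did not overlap for 5 of the 11, all above control (45.5%, against 5.57% of all genes). Control replicate 3 was the lowest array for 7 of the 11 (63.6%, against 34.7% of all genes). Without it 8 were higher and 3 lower, and their median was 0.11. In that setting 5 of 11 lay above control without overlap (45.5%, against 7.91% of all genes). Below control without overlap lay 1 of the 11, and 1298 of the 14433 genes tested there. With all arrays the 5 were Ggps1, Nus1, Pdss2, Coq2 and Pggt1b, with log2 fold changes of 0.19, 0.36, 0.40, 0.41 and 0.30. Coq2, which attaches the isoprenoid tail in ubiquinone synthesis, measured 9.57, 9.59 and 9.18 in floxed arrays, against 9.06, 9.13 and 8.93 in control arrays. It alone of the 11 had an unadjusted p under 0.05 (9.09%, against 3.70% of all genes), at 0.0258 with limma, and its adjusted p was 0.999. With averaged probe sets the difference of Coq2 was 0.26 on the log2 scale.

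Fatty acid supply, elongation and desaturation had 23 of 24 genes tested, with 12 higher and 11 lower in floxed arrays (median log2 difference 0.00), or 7 higher and 16 lower without control replicate 3. Acss2, which makes acetyl-CoA from acetate in the cytosol and nucleus, measured 8.85, 8.94 and 9.04 in floxed arrays, against 9.49, 9.23 and 9.48 in control arrays. Every floxed array was below every control array, and the log2 fold change was -0.46 (SE 0.15) with a limma unadjusted p of 0.00956 and an adjusted p of 0.999. Acss2 had a log2 fold change of -0.23 without floxed replicate 2, -0.15 with a filter at the 75th percentile and -0.19 with averaged probe sets. Fatty acid oxidation had 16 of 17 genes tested, with 10 higher and 6 lower and a median of 0.09, or 8 on each side without control replicate 3. Acaa2, the mitochondrial thiolase, measured 10.14, 10.27 and 10.31 in floxed arrays, against 9.89, 9.99 and 9.58 in control arrays, a log2 fold change of 0.42. It was 0.071 with a filter at the 75th percentile and 0.13 with averaged probe sets. Decr1, the mitochondrial dienoyl-CoA reductase, measured 9.41, 9.40 and 9.38 in floxed arrays, against values between 8.91 and 9.09 in the 3 control arrays, a log2 fold change of 0.40. The groups of Acaa2 and Decr1 did not overlap, and with limma both had an adjusted p of 0.999. In this list the groups did not overlap for 4 of 16 genes (25%, against 8.44% of all genes). Of these, 3 lay above control and 1 below, which was Cpt1a with a log2 fold change of -0.19. With averaged probe sets the log2 fold change of Decr1 was 0.25.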

How the data were processed

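The authors deposited log2 expression values for 241576 probe sets on 6 arrays, between 2.44 and 14.53. MAS5 was used per the submitters' processing notes, with no role or version named; the sources used here give no other step of background correction or normalization. Array medians lay between 7.56 and 7.65, and no scaling was added. Groups and replicate numbers came from the sample titles. The array annotation named 1 gene for 212097 probe sets, more than 1 for 4475 and no gene for 25004; only the first kind entered gene values. Of 20416 symbols, 17621 were current in RefSeq GRCm38.p6, 2742 were updated through synonyms and 53 matched neither.

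Probe sets under the median of the probe-set means (7.60) were left out, and the gene value was the median of the kept ones. The test over 14586 genes used R 4.3.3 and limma 3.58.1 (lmFit, and eBayes with its trend option), was two-sided, took adjusted p from Benjamini-Hochberg over all genes and had a threshold of 0.05. The same fit was run on kept probe sets. Steps were tested on simulated data. Detection calls were not used, so absence of a transcript was not called, and precision is limited by having 6 arrays.

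Members and lists were chosen with earlier results of these data known. Values on every array were given for members with an unadjusted p under 0.05, the member of smallest p in each role, the 2 largest differences in each direction and Srebf2, and from each further list for up to 4 genes with an unadjusted p under 0.05 or else that of smallest p. Other members with such values, and the markers Ms4a1, Cd79a, Ngp, Xist and Kdm5d, were picked with those values known. Alternatives covered scaling (quantile, or equal medians of the arrays), the filter (none, or the 75th percentile), averaging of probe sets, eBayes (no trend, or robust), array weights, a replicate block, each array left out, and, added after seeing the data, the largest block of probe-set numbers. Motifs were searched in Python 3.11.15.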

Additional observations from a re-analysis of the deposited data

How the results depend on the processing

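Of the 29 members, 11 kept the sign of their log2 fold change under all 16 alternatives, Idi1, Insig1 and Scap among them. Insig2 and Msmo1 kept it under the 15 that gave them a value, and 16 turned under at least 1. Genes past the threshold numbered 0 in the report, 2 with no filter, 1 with the mean of the probe sets, 404 with array weights, and 0 to 2 when 1 array was left out (2 without control replicate 1). With array weights 1 member passed on the higher side (Idi1, 0.68) and 1 on the lower (Scap, -0.46), and limma also called Erlin1 (0.54, adjusted p 0.0383) and Ctnnb1 (-1.03); averaged probe sets gave Ctnnb1 -1.64 (adjusted p 0.000269) and the filter at the 75th percentile -0.16 (adjusted p 0.987). Erlin1 was 0.18 without control replicate 2. Members with an unadjusted p under 0.05 were 3 in the report, 7 with array weights and 1 to 6 with 1 array left out (1 without floxed replicate 2, 6 without control replicate 1). With a filter at the 75th percentile the median log2 fold change was -0.12 for the SREBP regulators and 0.27 for sterol transport, and 0 probe sets passed, where Hsd17b7, Insig2, Msmo1, Mvd, Pmvk, Scd1 and Nr1h3 had no probe set left. The cause was not tested.

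With the replicate number as a block, 1 member had an unadjusted p under 0.05 and no member passed. Deviations of same-numbered floxed and control arrays correlated at 0.20, -0.00 and -0.24 across genes, so the numbers were not treated as pairs. Arrays of unlike number correlated between -0.29 and 0.29. The highest were floxed replicate 2 with control replicate 3 (0.29) and floxed replicate 3 with control replicate 2 (0.28). Whether arrays share a factor under another matching was not tested.

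Signs turned as follows. With array weights the log2 fold change was -0.078 for Dhcr7, -0.14 for Fasn, -0.066 for Fdps, -0.090 for Hmgcs1, -0.067 for Lss, 0.0015 for Nsdhl and 0.064 for Scd2. With equal medians it was -0.025 for Dhcr7, -0.020 for Fasn, -0.0033 for Lss and -0.020 for Npc2. With quantile normalization it was -0.027 for Dhcr7, -0.016 for Fasn, -0.0025 for Hmgcs1, -0.013 for Lss, -0.0025 for Mvd, -0.023 for Npc2 and -0.0051 for Srebf1. At the 75th percentile it was -0.057 for Fasn, 0.028 for Mvk and -0.088 for Srebf1. With averaged probe sets it was 0.0049 for Fdft1, 0.0041 for Nsdhl and 0.060 for Tm7sf2. With no filter it was -0.12 for Npc2, 0.084 for Pmvk and 0.16 for Tm7sf2. With 1 array left out the ranges were -0.045 to 0.059 for Dhcr7, -0.065 to 0.11 for Fasn, -0.22 to 0.15 for Fdft1, -0.018 to 0.29 for Fdps, -0.14 to 0.13 for Hmgcs1, -0.13 to 0.16 for Hsd17b7, -0.10 to 0.11 for Lss, -0.13 to 0.21 for Npc2, -0.16 to 0.12 for Nsdhl, -0.12 to 0.11 for Pmvk, -0.77 to 0.30 for Scd1, -0.18 to 0.022 for Scd2 and -0.055 to 0.083 for Srebf1.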
